A study of Mus musculus with 10 samples.

Results

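The CREB and AP-1 transcription factors were followed as 10 genes chosen by name, Creb1, Crem and Atf1 of the CREB family, Fos, Fosb, Fosl1 and Fosl2 of the FOS family, and Jun, Junb and Jund of the JUN family. All 10 were among the 20000 genes compared, out of 55414 genes in the table. RNA-seq was done in mpkCCDc11-38, an immortalized cell line from the mouse kidney's cortical collecting duct, with the strain labelled C57BL/6. Every sample had dDAVP, which activates the vasopressin V2 receptor, at 0.1 nM for 7 days, 4 in complete medium and then 3 in simple medium without serum or growth factors. Camk2d was intact in 5 samples, 1 of the parental wild-type line and 2 from each of 2 intact clones, which makes 3 lines. The 5 Camk2d KO samples were 5 clones, KO 1 and KO 2 from a guide to exon 8 and KO 3, KO 4 and KO 5 from a guide to exon 9. Each clone was grown from a single cell after CRISPR-Cas9, and the intact clones went through the same transfection. The labels do not say whether the 2 samples of a clone were separate cultures, so p-values over samples may partly measure technical spread.

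CREB-family factors bind cAMP response elements and are activated by phosphorylation, for which protein kinase A and Ca2+/calmodulin-dependent kinases are known enzymes. FOS proteins cannot form stable homodimers and pair with JUN proteins to make AP-1, whereas JUN proteins can also pair with each other. In collecting duct cells, vasopressin raises cAMP and transcription of Aqp2, the gene of the water channel aquaporin-2, and CREB and AP-1 elements upstream of Aqp2 have long been studied in that response. RNA-seq measures transcripts only, and neither the phosphorylation nor the binding of these factors was measured in these files. In bulk RNA, fewer expressing cells and less RNA per cell cannot be told apart.

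Camk2d itself, the targeted gene and the check of the labels, had a mean of 132 TPM in intact and 24.7 TPM in KO samples, with a log2 difference of -2.39 and a limma adjusted p of 1.2e-06. TPM, a relative abundance, scale reads by transcript length, so levels can be compared between genes, but they keep no record of depth, which is unknown. Of 9 principal cell markers, 8 reached 1 TPM, and Scnn1b did not (at most 0.39 TPM). The summed principal cell markers ran from 5075 to 7062 TPM in intact and from 2461 to 5304 TPM in KO samples. That sum includes Aqp2, the readout. The other 8 markers summed to 1302 to 1560 TPM in intact and 843 to 1516 TPM in KO samples, with the lowest sum in KO 2, and 4 of them had a higher and 4 a lower mean in KO samples. Of the 7 intercalated cell markers 1 reached 1 TPM, of 5 proximal tubule markers 1, of 3 thick ascending limb markers and of 5 fibroblast markers none, and of 4 immune markers 2, with summed immune levels of 15.0 to 21.9 TPM in intact and 14.9 to 30.3 TPM in KO samples. Atp6v1g3, Slc34a1, Umod, Slc12a1 and Col3a1 were listed at 0 in every sample. The KO 2 library stood apart from the others. It alone held the highest value of the 10 samples for 24.8% of the 20000 genes, it was lowest for Avpr2 (114 TPM), the vasopressin V2 receptor gene, and Fxyd4 (194 TPM), and highest for Hsd11b2 (115 TPM). Values without KO 2 are given beside those that rest on it.

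The 10 factors spanned a wide range of levels, and their order differed little between intact and KO cells. In intact samples Jund was highest at 664 ± 40.3 TPM (SD, n = 5), which placed it at percentile 99.2 of the tested genes by mean TPM over the 10 samples, followed by Junb at 329 ± 28.5 TPM, Jun at 77.4 ± 12.8 TPM and Fos at 47.5 ± 7.80 TPM. Creb1 and Atf1 lay close together at 32.9 ± 3.08 and 31.6 ± 0.705 TPM. Crem followed at 20.4 ± 1.00 TPM, then Fosl1 at 8.55 ± 1.502 TPM, Fosl2 at 6.93 ± 0.252 TPM and Fosb at 0.442 ± 0.0826 TPM. The ranges over all 10 samples did not overlap between Jund and Junb, Junb and Jun, Atf1 and Crem, or Fosl2 and Fosb, and the other neighbours in the order overlapped. One pair of neighbours exchanged places: Creb1 was above Atf1 in 4 of 5 intact samples and in 1 of 5 KO samples.

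**Figure D1:**
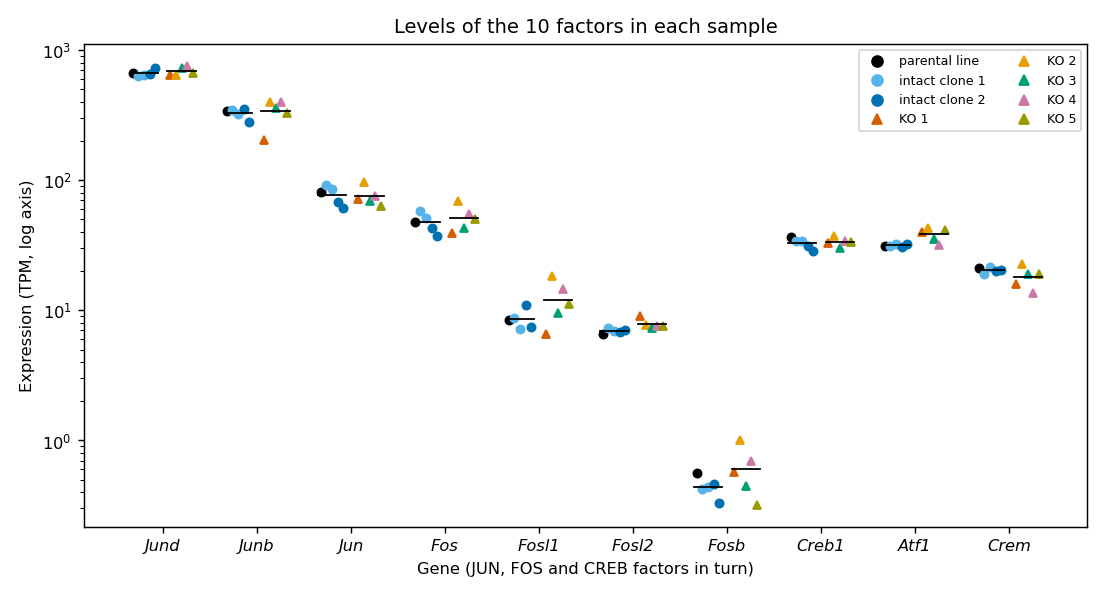
Expression of each factor in TPM (log axis) in the 5 intact samples (circles) and the 5 KO clones (triangles), with a black line at each group's mean. Jund and Junb lie above every other factor in all 10 samples and Fosb lies at or below 1.0 TPM.

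The first comparison asked whether transcripts of these factors differ between cells with and without Camk2d. None of the 10 passed an adjusted p of 0.05 in limma on log2(TPM + 1), where 0.005% of the 20000 genes did (1 gene, Camk2d). At an unadjusted p of 0.05, 1 of the 10 was called, Atf1, beside 6.99% of all genes. That share, 1398 genes, comes from a fit that takes the 2 samples of an intact clone as independent. With 1 value per cell line 762 genes were called at that p, and 745 when a random effect stood for the line, and Atf1 was among them in both (p 0.0261 and 0.0121). Fosl2 was the 1 factor whose TPM did not overlap between the groups, which held for 1.64% of all genes in either direction and for 1.2% with KO higher. The median log2 difference was 0.03 for the 3 CREB factors, 0.15 for the 4 FOS factors and 0.01 for the 3 JUN factors, beside 0.02 for all genes. All 4 FOS factors had a higher mean in KO samples, by 0.10 to 0.40 on the log2 scale, as did 57.3% of all genes. None of those 4 differences passed the adjusted threshold, and KO 2 was the highest sample for 3 of the 4. The mean of Fos was no longer higher in KO samples once KO 2 was left out. The 95% intervals of the differences ranged from narrow to wide. The widest was that of Fosl1, -0.10 to 0.90, followed by Junb at -0.36 to 0.38, Fos at -0.25 to 0.45 and Jun at -0.33 to 0.25. The interval was -0.43 to 0.07 for Crem, -0.10 to 0.38 for Fosb, -0.02 to 0.32 for Fosl2, 0.09 to 0.43 for Atf1 and -0.13 to 0.20 for Creb1, and the narrowest was that of Jund, -0.09 to 0.19.

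**Figure D2:**
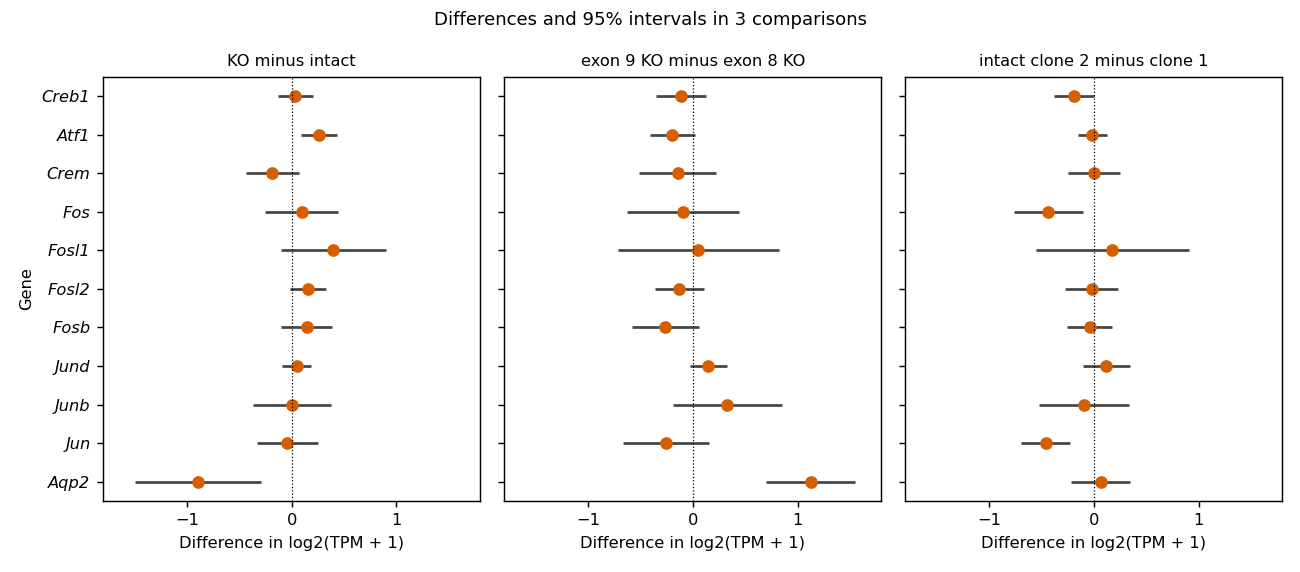
Difference in log2(TPM + 1) of each factor and Aqp2 (points) with its 95% interval from limma (lines) for KO minus intact, exon 9 KO minus exon 8 KO, and intact clone 2 minus intact clone 1. The KO minus intact interval lies above 0 for Atf1 and below 0 for Aqp2 and includes 0 for the other 9 factors.

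Among the CREB factors, Atf1, which can form dimers with CREB1 and is phosphorylated at the corresponding site, had the lowest p. The gene (ENSMUSG00000023027) lies at chr15:100227819-100261244 on the plus strand in GENCODE M21, build GRCm38. The parental line had 31.4 TPM of Atf1, the samples of intact clone 1 had 31.5 and 32.1, and those of intact clone 2 had 30.6 and 32.4. Levels in KO 1 to KO 5 were 40.0, 42.9, 35.6, 31.7 and 41.4 TPM. The intact samples were close together and 4 of 5 KO clones lay above all of them, while KO 4 lay within their range. The mean was 38.3 ± 4.59 TPM in KO (n = 5) against 31.6 ± 0.705 TPM in intact samples, 21.2% higher, which did not pass the adjusted threshold (log2 difference 0.26, SE 0.08, limma p 0.00615, adjusted p 0.555). A two-sided exact permutation test of this single gene gave p = 0.0238 over all arrangements of the samples, and p = 0.0536 over those of 5 KO and 3 intact lines. The adjusted p over the alternatives ran from 0.0599, with the exon 8 KO clones alone, to 1.00. Without KO 2 the log2 difference was 0.22, and 3 of the remaining 4 KO clones were above all intact samples. Of the 50-base windows in Atf1 transcripts, 88.0% occur in no other gene, compared with at least 99.8% for each of the other 9. What reads of a similar sequence add to Atf1 was not tested.

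Creb1, the most studied factor of the family, ran from 28.4 to 36.3 TPM (median 34.1) in intact and from 30.1 to 37.4 TPM (median 33.7) in KO samples. The groups overlapped almost completely (log2 difference 0.03, SE 0.08, limma adjusted p 0.941), and the difference was -0.004 without KO 2. Crem encodes both activators and, from an internal promoter, the ICER repressors, and a gene-level value sums all of them. The parental line had 21.0 TPM of Crem, intact clone 1 had 18.9 and 21.6, and intact clone 2 had 20.1 and 20.4, while KO 1 to KO 5 had 16.0, 22.5, 18.9, 13.7 and 19.2 TPM. Spread was wider in KO clones, with 3 of 5 below all intact samples and KO 2 above them. The means were 20.4 ± 1.00 TPM in intact and 18.1 ± 3.36 TPM in KO samples (n = 5 each, log2 difference -0.18, SE 0.11, limma adjusted p 0.769). Without KO 2 the KO mean was 16.9 ± 2.60 TPM (n = 4) and the log2 difference -0.26 (limma adjusted p 0.556), and without KO 4, the lowest clone, the log2 difference was -0.09 (adjusted p 0.814).

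As shares of the summed CREB-family TPM, Atf1 was higher and Crem lower in KO samples. Atf1 made up 37.3 ± 1.67% of the sum in intact and 42.5 ± 1.92% in KO samples, with the highest intact share of 39.91% just under the lowest KO share of 39.94%. Crem made up 24.0 ± 1.04% in intact and 20.0 ± 2.29% in KO samples, with the lowest intact share of 22.41% just above the highest KO share of 22.34%. Creb1 stayed near 38.7 ± 2.33% and 37.5 ± 3.02%, and the sum itself was 84.9 ± 3.44 TPM in intact and 90.04 ± 8.99 TPM in KO samples (86.9 ± 6.33 TPM without KO 2, n = 4). The 3 shares make up the whole sum, so a higher share of Atf1 lowers the others, and the TPM of Crem overlapped between the groups. The shares were computed after the single values were seen and were not tested.

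Within the FOS family, Fosl2, which encodes FRA-2, a FOS protein that lacks the strong activation domain of FOS, showed the smallest relative spread of the 4 in intact cells. Fosl2 (ENSMUSG00000029135) lies at chr5:32135801-32157842 on the plus strand in the same annotation. Its level was 6.60 TPM in the parental line, 7.27 and 6.88 in intact clone 1, and 6.84 and 7.07 in intact clone 2. KO 1 to KO 5 had 8.98, 7.66, 7.35, 7.60 and 7.58 TPM, so every KO clone was above every intact sample, with a gap of less than 0.1 TPM between KO 3 and the first sample of intact clone 1. The means were 6.93 ± 0.252 and 7.83 ± 0.651 TPM (n = 5 each), 13.0% higher in KO samples. The two-sided exact permutation p was 0.00794 over samples and 0.0179 over lines, in each case the smallest the design allows, for a gene that was 1 of 10 examined. The moderated test across all genes gave a log2 difference of 0.15 with an SE of 0.08 (limma p 0.0742, adjusted p 0.755). KO 1 was far above the other KO clones, and without it the log2 difference was 0.11. Rescaling by median ratios left the groups apart, with a highest intact value of 7.29 and a lowest KO value of 7.33.

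Fos, the prototype immediate early gene, is a textbook target of CREB. In RefSeq's GRCm38.p6 promoter table, the 300 bases around its start (250 before and 50 after, chr12:85473640-85473939, plus strand) hold the core TGACG of a cAMP response element at 2 places. The sequence is shown because Fos is the member best known to be driven through such an element, and the capitals mark TGACG.
Fos promoter: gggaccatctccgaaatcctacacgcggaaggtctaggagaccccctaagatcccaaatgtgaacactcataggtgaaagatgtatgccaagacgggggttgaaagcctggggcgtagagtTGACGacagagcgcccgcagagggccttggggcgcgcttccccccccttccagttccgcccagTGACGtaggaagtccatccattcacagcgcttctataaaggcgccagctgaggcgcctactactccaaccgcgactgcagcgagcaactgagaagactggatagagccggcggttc
One copy begins 129 bases and the other 66 bases before the start. A search for TGACG on either strand found it in 4 of the 8 factors with an entry in that table. It was present for 23.0% of all genes with an entry and in 20.8% of all promoters of that length. For Jund, the 300 bases searched (chr8:70697489-70697788, plus strand) end before the gene's start in GENCODE M21, 70698949. Those of Fosl2 (chr5:32136222-32136521, plus strand) begin after its start there, 32135801. Crem and Fosl1 had no entry. The other members with a match are shown as 29-base windows on the gene's strand, again with TGACG in capitals, at chr15:100227757-100227785 (Atf1, plus strand), chr7:19310089-19310117 (Fosb, minus strand) and chr8:84978838-84978866 (Junb, minus strand).
Atf1 window: gtgaccacgcggTGACGcagcacgccggc
Fosb window: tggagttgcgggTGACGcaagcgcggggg
Junb window: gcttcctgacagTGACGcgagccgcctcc
TGACG begins 90 bases before the start of Atf1 and 60 before that of Fosb. The full palindrome TGACGTCA, which contains TGACG and is present in 1.79% of all promoters, and the AP-1 letters TGACTCA, each searched on both strands, the latter present in 5.2%, were found in 0 of the 8 windows. A match of letters is not evidence of binding, and its absence from this window says nothing of the factor.

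Fos had 47.9 TPM in the parental line, 57.6 and 51.6 in intact clone 1 and 43.1 and 37.3 in intact clone 2, and 39.2, 69.7, 42.8, 55.1 and 50.0 TPM in KO 1 to KO 5. Its groups overlapped throughout, with KO 2 alone above all intact samples (means 47.5 ± 7.80 and 51.4 ± 11.97 TPM, n = 5 each, log2 difference 0.10, SE 0.16, limma adjusted p 0.912). Without KO 2 the KO mean was 46.8 ± 7.17 TPM (n = 4) and the log2 difference was -0.02. Fosb, a close relative of Fos, was near the bottom of the measured range, at 0.33 to 0.56 TPM (median 0.44) in intact and 0.32 to 1.0 TPM (median 0.57) in KO samples, with the highest value in KO 2 (log2 difference 0.14, SE 0.11, limma adjusted p 0.820). On the log2(TPM + 1) scale such a low gene's ratio is understated, and the log2 ratio of its mean TPM was 0.46. Both values rest on KO 2. Without it the KO mean of Fosb was 0.508 ± 0.159 TPM (n = 4), the log2 difference 0.06 and the log2 ratio of means 0.20.

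Fosl1, which encodes FRA-1 and is itself a known AP-1 target, had the widest relative spread of the factors above 1 TPM. Levels were 8.39 TPM in the parental line, 8.67 and 7.23 in intact clone 1 and 11.01 and 7.46 in intact clone 2, and 6.63, 18.5, 9.62, 14.5 and 11.3 TPM in KO 1 to KO 5. KO 2, KO 4 and KO 5 were above all intact samples and KO 1 was below them. The KO mean of 12.1 ± 4.56 TPM was 41.5% above the intact mean of 8.55 ± 1.502 TPM (n = 5 each), which did not exceed the spread between clones (log2 difference 0.40, SE 0.23, limma p 0.107, adjusted p 0.759). Without KO 2 the KO mean was 10.5 ± 3.30 TPM (n = 4) and the log2 difference 0.24. Leaving out KO 1, the lowest clone, gave 0.57 (limma p 0.0123, adjusted p 0.498), and the exon 9 clones alone gave 0.42 against intact samples (p 0.0323, adjusted p 0.515).

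Among the JUN factors, Junb differed most between KO clones. Its level was 339 TPM in the parental line, 347 and 325 in intact clone 1 and 352 and 281 in intact clone 2, and 204, 403, 356, 401 and 328 TPM in KO 1 to KO 5. KO 1 was below every other sample and KO 2, KO 3 and KO 4 were above all intact samples, so the means of 329 ± 28.5 and 339 ± 81.5 TPM (n = 5 each) were close while the spread was wider in KO clones (log2 difference 0.01, SE 0.17, limma adjusted p 0.998). Exons of Junb overlap those of Prdx2, a peroxiredoxin gene, on the opposite strand in GENCODE M21. Without KO 1 the log2 difference of Junb was 0.18 (limma p 0.0631, adjusted p 0.620). The cDNA libraries do not mark strand, and Prdx2 was also lowest in KO 1 (298 TPM) and highest in KO 2 (498 TPM), so reads in the overlap cannot be told apart. Jund, which restrains growth in several cell types, ran from 630 to 733 TPM (median 652) in intact and from 641 to 756 TPM (median 664) in KO samples (log2 difference 0.05, SE 0.06, limma adjusted p 0.884). Jun, the partner of Fos in classical AP-1, ran from 60.7 to 91.7 TPM (median 81.2) in intact and from 63.6 to 96.1 TPM (median 71.1) in KO samples (log2 difference -0.04, SE 0.13, limma adjusted p 0.963). Fosl1, Jun, Jund and Crem also share exon bases with a gene on the opposite strand (Ccdc85b, Junos, Gm11175 and Gm6225). These were at 12.7 to 15.0, 0.09 to 2.03, 0.97 to 12.3 and 0.25 to 0.57 TPM.

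JUN transcripts outnumbered FOS transcripts in every sample. The summed JUN level was nearly constant in intact samples, at 1071 ± 9.42 TPM with a range of 1056 to 1081, and was 1101 ± 118 TPM in KO clones with a range of 923 to 1233 TPM (n = 5 each). KO 1, and narrowly KO 5, lay below and KO 2, KO 3 and KO 4 above all intact sums. Jund made up 62.1 ± 3.56% of it in intact and 62.8 ± 5.00% in KO samples, and Junb 30.7 ± 2.69% and 30.4 ± 4.96%. The FOS sum was 63.4 ± 7.91 TPM in intact and 71.9 ± 16.4 TPM in KO samples, of which Fos made up 74.6 ± 3.62% and 71.4 ± 0.723%. The ratio of JUN to FOS transcripts was 17.1 ± 2.29 in intact and 15.7 ± 2.67 in KO samples, within the spread of the samples. Without KO 2 the KO means of the FOS sum and the ratio were 65.7 ± 9.997 TPM and 16.7 ± 1.72 (n = 4).

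**Figure D3:**
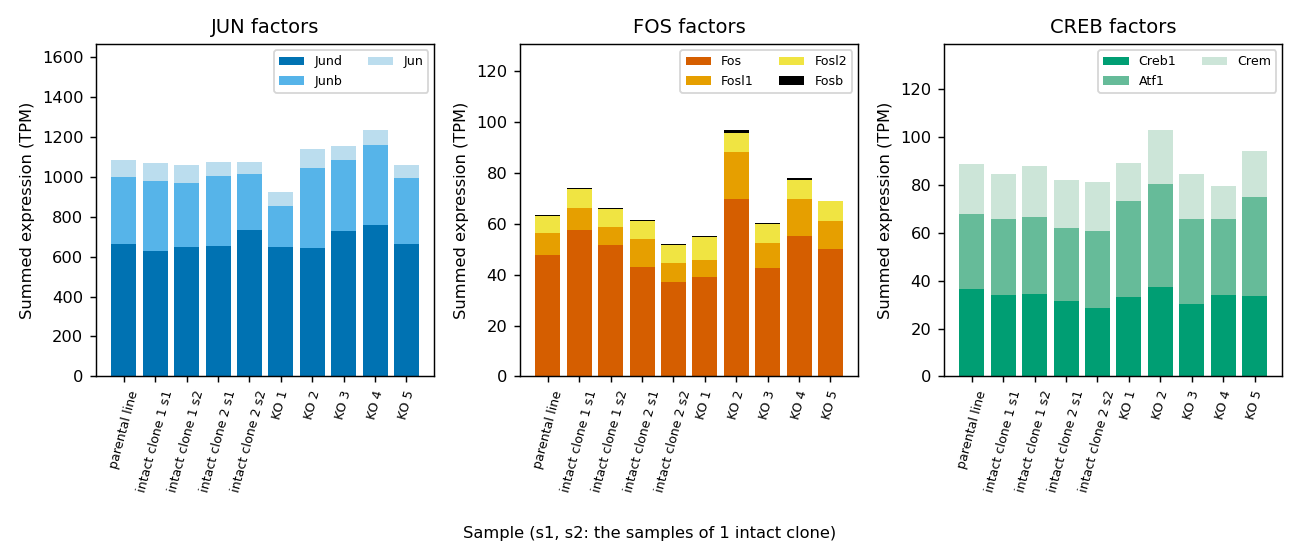
Summed TPM of the JUN, FOS and CREB factors in each sample, stacked by gene, with a separate axis for each family that starts at 0. The JUN sum lies between 1056 and 1081 TPM in the 5 intact samples and between 923 and 1233 TPM in the KO clones.

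The factors also differed between single clones. KO 2 held the highest level of the 10 samples for 8 of the 10 factors, all except Fosl2 (KO 1) and Jund (KO 4), where it alone held the highest level of 24.8% of all genes and of 29.1% of genes with a mean of at least 1 TPM. The count of 8 depends on the scaling, as KO 2 had the largest factor in the rescaling by median ratios (1.04). After it, Creb1 was highest in an intact sample (36.1 TPM, against at most 35.8 TPM in KO clones) and Junb in KO 4 (393 TPM). KO 2 was highest for 9 of the 26 tested immediate early and cAMP-response genes, to be read beside the same 24.8% and 29.1%. Among the 9 were Nr4a1, an orphan nuclear receptor gene, at 82.1 TPM against 43.0 to 64.7 TPM in intact samples, and Myc at 274 TPM against 177 to 209 TPM. For other genes of that list KO 2 was the lowest of the 10 samples, namely Ier3 (29.6 TPM), Btg2 (64.3 TPM) and Zfp36 (29.1 TPM). With KO 2 left out, the factors were spread over the clones, with KO 4 highest for 4 (beside 16.0% of all genes), intact clone 1 for 3, and the parental line, KO 1 and KO 5 for 1 each. Relative to the intact mean on the log2(TPM + 1) scale, KO 2 was higher by 1.04 for Fosl1, 0.56 for Fos, 0.47 for Fosb, 0.43 for Atf1 and 0.33 for Jun. The lowest such value was -0.68, for Junb in KO 1. Without KO 2, the log2 difference between KO and intact samples was -0.13 for Jun, -0.07 for Junb, 0.07 for Jund and 0.16 for Fosl2. The place of KO 2 was noticed after the values were seen. KO 2 is 1 sample, and what its clone and its library each contribute cannot be told apart.

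**Figure D4:**
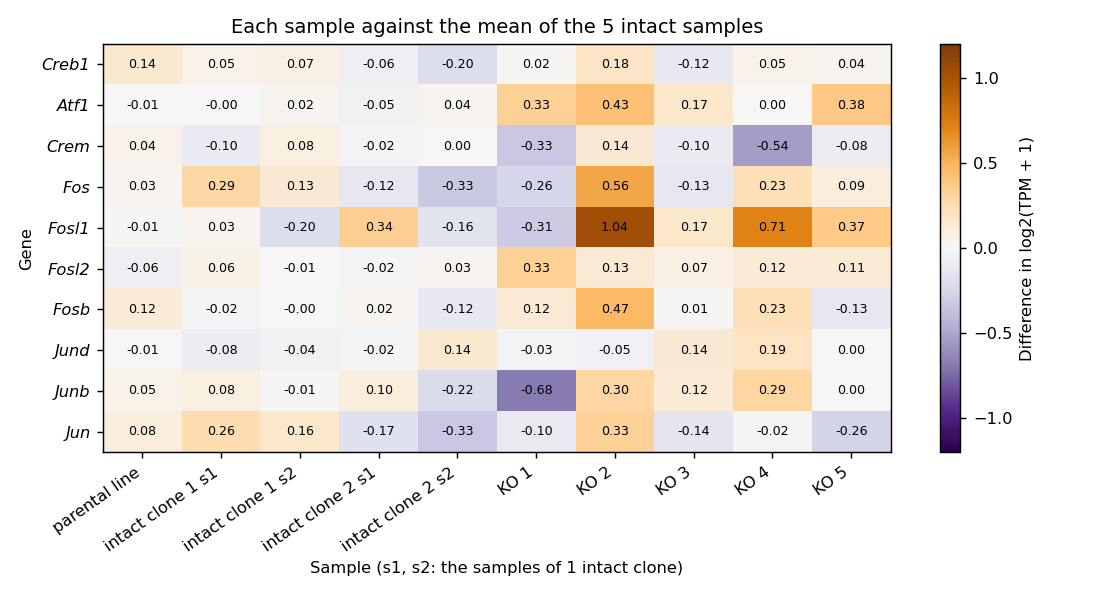
Difference in log2(TPM + 1) of each factor (rows) in each sample (columns) from the mean of the 5 intact samples, printed in each cell and coloured from purple (lower) to orange (higher). KO 2 has the highest value in 8 of 10 rows, and the lowest value shown is -0.68 for Junb in KO 1.

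Exon 9 and exon 8 KO clones were compared to ask whether clones from different guides differ in these factors. Of the 10, 0 passed an adjusted p of 0.05 in limma, beside 0.31% of all genes, and 0 had an unadjusted p under 0.05, beside 12.1% of all genes. Adjusted p ran from 0.463 for Atf1 to 0.982 for Fosl1. Atf1 averaged 41.5 TPM with the exon 8 guide (2 clones) and 36.3 TPM with the exon 9 guide (3 clones, log2 difference -0.20, SE 0.10). Jund averaged 645 and 716 TPM (log2 difference 0.15, SE 0.08). Junb averaged 303 and 362 TPM (log2 difference 0.33, SE 0.23, adjusted p 0.621), but the exon 8 mean joined the lowest and the highest KO clones. Without KO 2, which leaves KO 1 alone in the exon 8 arm and assumes that it varies like the other groups, the Junb difference was 0.82 with a limma adjusted p of 0.0259, and without KO 1 it was -0.16. Aqp2 was lower in the exon 8 clones, at 1450 TPM against 3175 TPM (log2 difference 1.13, SE 0.19, adjusted p 0.0513).

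Intact clone 2 and intact clone 1, which both kept Camk2d, show how far the factors differ between clones without the deletion. No factor passed the adjusted threshold in limma, nor did any gene (0.0% of 20000), in a fit with 5 samples. At an unadjusted p of 0.05, Fos and Jun were called, both lower in clone 2, beside 17.0% of all genes in either direction and 9.09% lower in clone 2. Jun was 91.7 and 85.6 TPM in clone 1 and 67.7 and 60.7 TPM in clone 2 (log2 difference -0.46, SE 0.08, p 0.0082, adjusted p 0.151). The log2 difference of Fos was -0.43 (SE 0.11, p 0.0241, adjusted p 0.219). The samples of the clones did not overlap for 4 of the 10 factors, Fos, Jun, Creb1 and Jund, as for 44.2% of all genes. Creb1 was 34.1 and 34.4 TPM in clone 1 and 31.4 and 28.4 TPM in clone 2 (log2 difference -0.19, SE 0.06, p 0.0508). Atf1 and Fosl2, by contrast, differed by -0.01 and -0.02 between these clones, with 95% intervals of -0.15 to 0.12 and -0.27 to 0.23.

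Aqp2, the readout gene, was 5502 TPM in the parental line, 3773 and 4084 in intact clone 1 and 4338 and 3890 in intact clone 2, and 1281, 1618, 3789, 2880 and 2856 TPM in KO 1 to KO 5. KO 3 lay within the intact range and the other 4 KO clones below it (log2 difference -0.89, SE 0.27, adjusted p 0.565 in limma). The two-sided exact permutation p was 0.0159 over samples and 0.0536 over lines. Against intact samples the log2 difference was -1.57 (limma adjusted p 0.0354) for the exon 8 clones alone and -0.44 (adjusted p 0.461) for the exon 9 clones alone, while the adjusted p of the direct comparison of the guides, 0.0513, ran from 0.0302 to 0.161 over its alternatives. The RefSeq promoter of Aqp2 (chr15:99578806-99579105, plus strand, GRCm38.p6) is shown because Aqp2 is the readout. It holds TGACG once, on the minus strand and 211 bases before the start, marked in capitals as CGTCA, and neither TGACGTCA nor TGACTCA.
Aqp2 promoter: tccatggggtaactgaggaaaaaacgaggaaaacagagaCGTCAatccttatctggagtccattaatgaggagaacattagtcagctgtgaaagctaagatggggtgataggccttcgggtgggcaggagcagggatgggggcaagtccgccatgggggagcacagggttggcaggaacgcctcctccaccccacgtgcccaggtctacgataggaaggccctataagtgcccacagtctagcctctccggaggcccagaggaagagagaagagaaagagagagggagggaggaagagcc
Binding to this window was not measured in the files used here.

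Levels of the factors were set beside Aqp2 over the 8 cell lines, with the samples of each intact clone averaged. Fosl2 was 6.60 TPM in the parental line, 6.96 in intact clone 2 and 7.08 in intact clone 1, which had 5502, 4114 and 3929 TPM of Aqp2. In KO 3, KO 5 and KO 4 it was 7.35, 7.58 and 7.60 TPM with 3789, 2856 and 2880 TPM of Aqp2, and in KO 2 and KO 1 it was 7.66 and 8.98 TPM with 1618 and 1281 TPM. The order of Fosl2 was thus the reverse of that of Aqp2 except that KO 4 and KO 5 exchanged places. Intact and KO lines fell in separate ranges of Fosl2, so this order partly restates the difference between the groups, and no pooled correlation is given. How many genes share such an order was not counted. For Atf1, Pearson's r with Aqp2 was -0.78 and Spearman's rho -0.86 over the 8 lines, and r was -0.83 without the 2 lines farthest from the median, KO 2 and KO 5. The 3 intact lines lay between 31.4 and 31.8 TPM of Atf1 while their Aqp2 ran from 3929 to 5502 TPM, so Atf1 hardly varied among intact lines. Within the 5 KO lines, too few for a correlation, Atf1 was lowest in KO 4 and highest in KO 2. The other 8 factors had r between -0.51 (Fosb) and 0.41 (Junb), and across all 20000 genes the 5th and 95th percentiles of r were -0.70 and 0.65. All these lines share the genotype contrast and the KO 1 and KO 2 clones with the lowest Aqp2, and these values are a description.

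**Figure D5:**
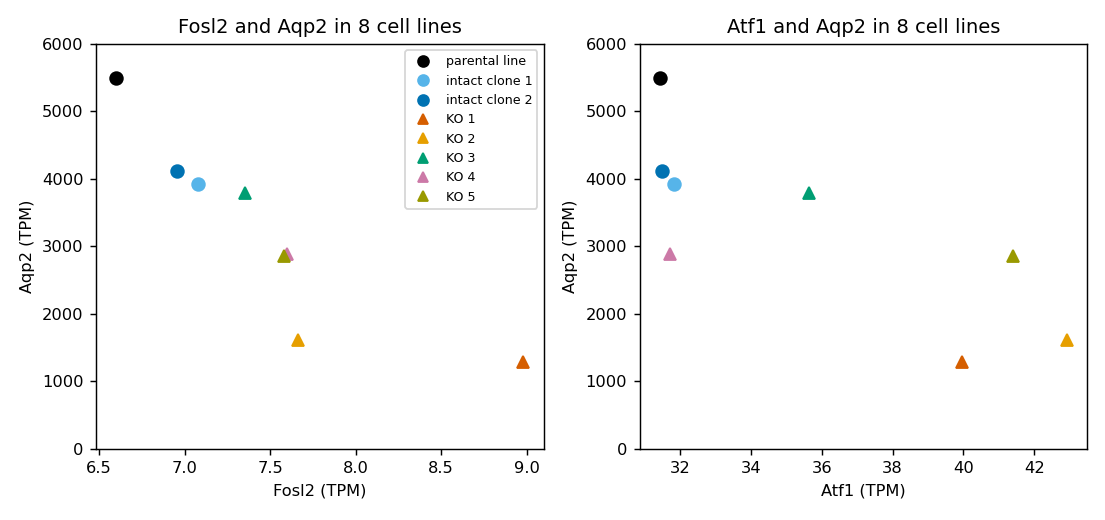
Aqp2 against Fosl2 (left) and Atf1 (right) in TPM in 8 cell lines, with intact lines as circles and KO clones as triangles. Aqp2 falls from 5502 TPM at a Fosl2 level of 6.60 TPM to 1281 TPM at 8.98 TPM, and KO 4 lies among the intact lines for Atf1.

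Among the factors themselves, Pearson's r over the 8 lines was 0.79 for Fos and Fosl1, 0.77 for Fos and Jun, 0.77 for Creb1 and Jun, 0.76 for Fosl1 and Junb, and 0.75 for Creb1 and Fos. The lowest were -0.61 for Crem and Jund and -0.61 for Fosl2 and Junb. For Fosl2 and Junb, however, Spearman's rho was 0.095, and KO 1 was both highest for Fosl2 (8.98 TPM) and lowest for Junb (204 TPM). All these values share the KO 2 library, which was highest for 8 factors. Over the 7 lines without KO 2, r was 0.56 for Fos and Fosl1, 0.56 for Fos and Jun, 0.64 for Creb1 and Jun, 0.76 for Fosl1 and Junb, 0.61 for Creb1 and Fos, and -0.54 for Crem and Jund. The order of the pairs changed with it, the highest then being Fosl1 and Jund at 0.77 (0.24 over the 8 lines) and the lowest Fosl2 and Junb at -0.71. That lowest value still includes KO 1, at the opposite ends of the 2 genes, and is no pattern shared by the lines. The genes most alike in pattern to a factor, by Pearson's r over the 10 samples among 13047 genes with a mean of at least 1 TPM, were Phf12 for Fosl2 (0.959), Prpf40b for Atf1 (0.931), Lbr for Fos (0.965), Pus7 for Fosl1 (0.977), Uba2 for Creb1 (0.957), Zfp689 for Jun (0.972) and Nae1 for Junb (0.971). Each is the highest of 13047 values and carries no test.

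Genes that act with or on these factors were counted list by list in the KO and intact comparison, and 0 genes of any of these lists passed the adjusted threshold in limma. Of 15 other CREB/ATF factors 13 were tested, 8 with a higher and 5 with a lower mean in KO samples (median log2 difference 0.02), and 0 had an unadjusted p under 0.05, beside 6.99% of all genes. Atf4, a stress-response factor, averaged 296 TPM in intact and 301 TPM in KO samples. Atf3, which is induced by stress and can pair with JUN, averaged 29.4 and 27.1 TPM. Of 13 other bZIP partners of AP-1 (the MAF and BACH proteins among them), 11 were tested, with 6 higher and 5 lower and 0 called at that p. The 5 CREB coactivators had 4 higher and 1 lower mean. Crtc1, a coactivator that enters the nucleus when dephosphorylated, averaged 20.4 ± 1.01 TPM in intact and 23.1 ± 2.40 TPM in KO samples (n = 5 each, log2 difference 0.17, SE 0.07, limma p 0.0424, adjusted p 0.701). Crebbp, the histone acetyltransferase CBP, averaged 22.6 and 25.2 TPM (p 0.0542, adjusted p 0.729).

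Of 17 kinases acting on CREB or its coactivators 16 were tested, with 13 higher, 3 lower and 0 at an unadjusted p under 0.05 (6.99% of all genes), and the counts were the same for 17 MAP kinases and dual-specificity phosphatases upstream of AP-1. The median log2 differences of both lists were 0.07, beside 0.02 for all genes, of which 57.3% were above 0. Prkar2b, a regulatory subunit of protein kinase A, averaged 91.1 ± 5.61 TPM in intact and 98.6 ± 5.07 TPM in KO samples (n = 5 each, log2 difference 0.11, SE 0.05, limma adjusted p 0.723). Mapk3, the gene of ERK1, ran from 114 to 121 TPM in intact and from 114 to 163 TPM in KO samples, with the highest value in KO 2.

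Of 27 immediate early and cAMP-response genes 26 were tested, and 18 had a higher and 8 a lower mean in KO samples. At an unadjusted p of 0.05, 1 of the 26 was called higher, beside 4.53% of all genes, and 2 were called lower, beside 2.46% (0 at the adjusted threshold). Klf2, a transcription factor gene, averaged 23.5 ± 1.5 TPM in intact and 17.9 ± 3.02 TPM in KO samples (n = 5 each), with every intact sample (at least 21.7 TPM) above every KO clone (at most 20.1 TPM), and had a log2 difference of -0.39 (SE 0.11, limma p 0.00548, adjusted p 0.549). Ier3 averaged 44.1 ± 3.66 and 35.9 ± 3.64 TPM and also did not overlap between the groups, as was the case with KO lower for 0.445% of all genes (log2 difference -0.29, SE 0.08, limma p 0.00431, adjusted p 0.524). Hbegf, the gene of an EGF receptor ligand, averaged 32.1 ± 2.22 and 39.2 ± 5.50 TPM (log2 difference 0.27, SE 0.09, limma p 0.0143, adjusted p 0.607). The classical early gene Egr1 averaged 116 ± 13.8 and 132 ± 28.1 TPM, with overlapping groups. Of 15 AP-1 target genes 11 were tested, with 4 higher, 7 lower and 0 called at an unadjusted p of 0.05, beside 6.99% of all genes. Ccnd1, the gene of cyclin D1, averaged 15.0 ± 2.96 TPM in intact and 12.4 ± 1.90 TPM in KO samples (n = 5 each), with overlapping groups and a limma adjusted p of 0.759.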

How the data were processed

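RNA was made into amplified full-length cDNA (SMART-Seq v4), fragmented (Nextera XT) and sequenced as 50-bp pairs. The authors aligned reads with STAR and quantified genes with RSEM, and the values they deposited are TPM for 55414 Ensembl genes in 10 samples. Depth is unknown, and no counting interval or detection limit is given.

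Values were compared as log2(TPM + 1), over the 20000 genes ranked first by mean TPM, with limma 3.58.1 in R 4.3.3 (intensity trend) with Benjamini-Hochberg adjustment at 0.05. KO was compared with intact in 5 against 5 samples, exon 9 with exon 8 clones in a fit of 3 groups over 10 samples, and intact clone 2 with clone 1 in the 5 intact samples with a mean for each line. The guide of each KO clone came from the study's supplement. Single genes were tested with two-sided exact permutation tests. In simulated data where 200 of 20000 genes were changed, the procedure recovered 92% at a log2 change of 1 for KO against intact, 77.5% for exon 9 against exon 8, and 65% for clone 2 against clone 1. The simulated samples were independent, whereas the fit with cell line as a random effect gave a correlation of 0.606 within lines. Only genes with a mean log2(TPM + 1) above 1 were changed, which leaves out Fosb. The largest KO against intact difference of a factor was 0.40 (Fosl1), so these shares do not give the power for the factors. Other steps used scipy 1.17.1, numpy 2.4.6 and pandas 2.3.3 in Python 3.11.15.

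The members and the gene lists were chosen with earlier results of these data known. Beside the members, Aqp2 and Camk2d, genes were named from those lists by their p-values, and as best known members (Atf4, Atf3, Egr1, Nr4a1, Myc) after their values were seen. Transcript sharing and opposite-strand exons were read from GENCODE M21 (GRCm38) and promoters from RefSeq (GRCm38.p6). The authors' annotation is a later one, and no coordinate comes from their files.

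Alternatives were a pseudocount of 0.1 or 0.5, other gene filters, rescaling by median ratios, quantile normalization, limma with robust moderation or without trend, a single mean for each line, cell line as a random effect, the KO clones of each guide alone, and leaving out each sample. The log2 ratio of mean TPM, overlap after rescaling, and means, sums and correlations without KO 2 were added after seeing the data.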

Additional observations from a re-analysis of the deposited data

Results flagged for a closer look

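Fosl2 in KO 1 (8.98 TPM) stood apart from the other 4 KO clones (7.35 to 7.66 TPM). Its gap to the nearest clone was 0.81 of the whole KO range, above the limit for 5 samples. Chance alone gives about 1 such gap in 20 groups. The log2 difference between KO and intact samples was 0.15 with KO 1 and 0.11 without it.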

How the results depend on the processing

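Atf1, Fosl1, Fosl2 and Fosb kept a higher mean and Crem a lower mean in KO samples under each alternative run (23, and 22 for Fosb, which a mean of at least 1 TPM leaves out), and no factor passed the adjusted threshold there. Atf1 had an unadjusted limma p of at most 0.043 in 22 of 22 alternatives with a test. Genes called for KO against intact numbered 1, and 2 with a pseudocount of 0.1, 50 with the exon 8 clones alone, and 1 to 2 with a sample left out. For exon 9 against exon 8 clones they numbered 62, 6 with 1 value per cell line, and 21 to 1730 with a sample left out, the highest without KO 1. For clone 2 against clone 1 they numbered 0, and 249 with a mean TPM of at least 1, 11 without a trend and 183 with robust moderation. The cause was not tested.

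Some differences changed sign, most of them small in the fit as reported but not Junb between the guides (0.33) or Fosl1 between the intact clones (0.18). For KO against intact, Junb was -0.023 with median ratios, -0.0019 with 1 value per line and -0.19 with exon 8 clones alone. With those clones Jun was 0.11 and Jund -0.041. Creb1 was -0.0096 with quantile normalization and -0.011 with exon 9 clones alone. With a sample left out, Creb1 ran from -0.016 to 0.072, Fos from -0.019 to 0.18, Jun from -0.13 to 0.022 and Junb from -0.067 to 0.18. For exon 9 against exon 8, Crem ran from -0.38 to 0.089, Fos from -0.50 to 0.32, Fosl1 from -0.62 to 0.73 and Junb from -0.16 to 0.82. For clone 2 against clone 1, Atf1 was 0.0069 with median ratios and 0.0055 with quantile normalization, where Fosl2 was 0.015 and Aqp2 -0.13. With a sample left out, which leaves 1 sample in an arm, Crem ran from -0.087 to 0.091, Atf1 from -0.055 to 0.026, Fosb from -0.10 to 0.030, Fosl1 from -0.077 to 0.43, Fosl2 from -0.056 to 0.014, Junb from -0.25 to 0.067 and Aqp2 from -0.013 to 0.14.

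No paired analysis was possible because the replicate numbers only name the samples and no label pairs a KO clone with an intact sample. Unknown depth limits what can be said of Fosb, at or below 1.0 TPM.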
